A study of Mus musculus with 3 samples.

Results

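Malat1, Meg3, Neat1 and Miat are long noncoding RNAs that remain largely in the nucleus. They were chosen by name, as 4 of the 31053 gene rows of a count table, with their levels in these libraries already known, so the levels are given as a description. The table holds single cells sorted for green fluorescence as cones from papain-dissociated retina of mice labelled postnatal day 12, one 96-well plate and so 1 library per line. The wildtype library came from the Chrnb4-GFP line, in which a reporter under the Chrnb4 gene marks cones. The Cnga3-/- library came from mice without the cone subunit of the cyclic nucleotide-gated channel, and the Pde6ccpfl1 library from mice with a mutant catalytic subunit of cone phosphodiesterase. All 3 library names carry GFP, and which reporter the mutant lines hold is not stated. The number of animals behind a plate is not given in the labels, and the well names carry the tags P11 (wildtype), P08 (Cnga3-/-) and P10 (Pde6ccpfl1), whose meaning is not stated. If these tags are ages, age and genotype cannot be told apart.

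A well was kept if 500 or more genes had a count and mitochondrially encoded (mt-) genes took no more than 30% of its total. This left 52 of 61 wildtype, 70 of 76 Cnga3-/- and 61 of 71 Pde6ccpfl1 wells, or 183 of 208, with 273080, 335499 and 295011 counts and medians of 4895, 4056.5 and 3796 counts per well. The 12 cone markers together had 50, 247 and 212 counts in these libraries, in the same order. In wildtype Opn1sw, Gnat2, Gngt2, Pde6c and Cngb3 were at 0, and the cone markers together stood at 4.33 CPM per kb, where CPM is the count scaled to the library total and kb is the kilobases of annotated exon. Olfactory receptor genes, which encode the odorant receptors of the nose and serve here as a reference for genes not tied to cones, stood at 4.47 in the same library. The wildtype library is therefore called by its label, without its wells being taken as shown to be cones. Cnga3 itself had 22, 13 and 3 counts in wildtype, Cnga3-/- and Pde6ccpfl1, and Pde6c had 0, 5 and 2. Where in these genes the counts lie is not given, so they do not check the genotypes.

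Malat1 is an abundant single-exon RNA of nuclear speckles, the bodies that store splicing factors. Its conventional transcript ends without a poly(A) tail: the primary RNA is cut ahead of a tRNA-like piece, mascRNA, and the new end is protected by a triple helix that includes a genome-encoded stretch of A. Neat1 is the scaffold of paraspeckles, nuclear bodies built with proteins such as Sfpq and Nono. Meg3 is the maternally expressed RNA of the imprinted Dlk1-Dio3 region. Miat, also called Gomafu or Rncr2, was described in the retina and forms nuclear domains that hold splicing factors such as Qk and Sf1.

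In GENCODE M21 on build GRCm38 all 4 are annotated as lincRNA genes. Malat1 lies at chr19:5795690-5802672 on the minus strand with 6.98 kb of exon, and Neat1 at chr19:5824708-5845478 on the same strand with 20.77 kb of exon and 22035 bases between them. Meg3 lies at chr12:109541001-109571726 on the plus strand with 18.09 kb of exon, and Miat at chr5:112213228-112229395 on the minus strand with 9.29 kb. Each has annotated genes inside it or on the opposite strand (Gm37376 across Malat1, Gm26906 across Meg3, Gm26953 across Miat), and since the strand setting of the counting is not given, reads of such partners cannot be told apart. The protocols named for these libraries, SMARTseq2 and MARS-seq, prime reverse transcription with oligo-dT. The longest run of A inside the longest annotated transcript of Malat1, Neat1 and Miat is therefore printed here in capitals. Where several runs tie, it is the first of them, and 30 bases are shown on either side, 5′ to 3′ on the gene's strand.

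Malat1, chr19:5795958-5796029 (minus): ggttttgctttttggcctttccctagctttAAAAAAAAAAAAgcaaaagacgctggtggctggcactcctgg

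Neat1, chr19:5835904-5835970 (minus): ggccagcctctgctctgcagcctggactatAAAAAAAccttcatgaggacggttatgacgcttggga

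Miat, chr5:112229183-112229246 (minus): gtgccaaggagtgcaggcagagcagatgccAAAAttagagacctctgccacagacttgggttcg

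The run of 12 A in Malat1 is the genome-encoded tract of the triple helix, 298 bases from the annotated 3′ end, and the mascRNA follows it. The longest run is 7 A in Neat1, found 2 times, and 4 A in Miat, found 12 times, so neither printed run is the only one of its length. Miat has no run of 6 or more, against 5 such runs in Malat1 and 7 in Neat1. Whether reads began at these runs was not tested.

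Malat1 was the member whose level differed most between the libraries. The wildtype library held 22 Malat1 counts, the Cnga3-/- library 295 and the Pde6ccpfl1 library 165, or 80.6 CPM (exact Poisson 95% interval 50.5 to 122), 879 (782 to 986) and 559 (477 to 651). These intervals do not overlap, and they cover counting error alone: with 1 library per genotype no replicate error exists, wells of a plate are not replicates, and no test was made. Among the 31053 gene rows, Malat1 ranked 1742, 104 and 178 by CPM in wildtype, Cnga3-/- and Pde6ccpfl1. Per length it stood at 11.5, 126 and 80.1 CPM per kb, which is 2.58, 35.0 and 19.3 times the level of the olfactory receptor genes in the same library (4.47, 3.60 and 4.14 CPM per kb). The wildtype level of Malat1 was thus far nearer to that reference than either mutant level.

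Meg3 counts numbered 46, 37 and 54 in wildtype, Cnga3-/- and Pde6ccpfl1, or 168 CPM (123 to 225), 110 (77.6 to 152) and 183 (138 to 239). Its intervals overlapped among the 3 libraries, and per length it stood at 9.31, 6.10 and 10.1 CPM per kb, or 2.08, 1.70 and 2.44 times the olfactory receptor level. Neat1 had 27, 30 and 32 counts, or 98.9 CPM (65.2 to 144), 89.4 (60.3 to 128) and 108 (74.2 to 153). Neat1 was the member closest to the reference in every library, with 4.76, 4.30 and 5.22 CPM per kb, or 1.06, 1.20 and 1.26 times the olfactory receptor level. Scaled to its whole annotated exon of 20.77 kb, Neat1 was thus not set apart from that reference. Where in Neat1 the counts lie is not given, so a level over a shorter part of it cannot be read. Miat had 8, 34 and 41 counts, or 29.3 CPM (12.6 to 57.7), 101 (70.2 to 142) and 139 (99.7 to 189). Per length Miat went from 0.705 times the reference in wildtype to 3.03 times in Cnga3-/- and 3.61 times in Pde6ccpfl1.

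**Figure D1:**
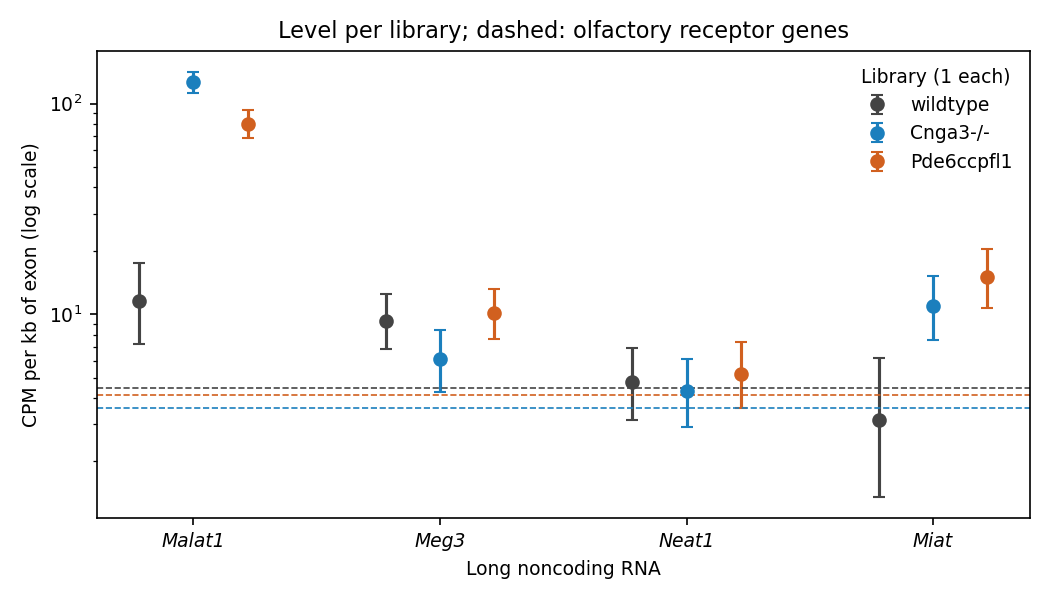
Level of each long noncoding RNA in each library, in CPM per kb of exon on a log axis. Points are the single library of a genotype, bars are exact Poisson 95% intervals (counting error only), and dashed lines mark the olfactory receptor genes of the same library. Malat1 stands at 126 in Cnga3-/- and 80.1 in Pde6ccpfl1, whereas Neat1 lies next to the dashed lines in all 3 libraries.

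The order of the 4 per length also differed. In wildtype it ran Malat1, Meg3, Neat1, Miat, and the intervals of each neighbouring pair overlapped. In both mutant libraries it ran Malat1, Miat, Meg3, Neat1, with Malat1 apart from the rest. There the intervals of Miat and Meg3 overlapped in both, and those of Meg3 and Neat1 overlapped in Cnga3-/- but not in Pde6ccpfl1 (7.60 to 13.2 and 3.57 to 7.37). By CPM, without scaling to length, the wildtype order was Meg3 (168), Neat1 (98.9), Malat1 (80.6) and Miat (29.3). In both mutant libraries the CPM order was Malat1, Meg3, Miat, Neat1. Malat1 made up 21.4% of the 103 counts of the 4 genes in wildtype, 74.5% of 396 in Cnga3-/- and 56.5% of 292 in Pde6ccpfl1.

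How the counts fell over wells has to be given before the libraries are compared, because well positions recurred between plates. Of the 96 positions of a plate, 57 have a column in all 3 plates and 43 were kept in all 3. Meg3 had its highest count at position B07 on every plate: 19 of 46 counts in wildtype (41.3%), 14 of 37 in Cnga3-/- (37.8%) and 24 of 54 in Pde6ccpfl1 (44.4%). No other well held more than 4, 2 and 3 Meg3 counts. Those 3 wells had 5780, 7520 and 8250 counts in all, so they were not extreme in depth. Neat1 had its highest count at G12 on every plate, with 7, 6 and 4 counts against at most 3 in any other well. Miat had 13 counts at E01 in Cnga3-/- and 14 at E01 in Pde6ccpfl1, against at most 2 and 4 elsewhere, and E01 was not kept in wildtype. Malat1 behaved differently: its highest well was C05 in wildtype (7 counts), C12 in Cnga3-/- (31) and H04 in Pde6ccpfl1 (16), and C12 held 0 Malat1 counts in wildtype and 5 in Pde6ccpfl1.

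**Figure D2:**
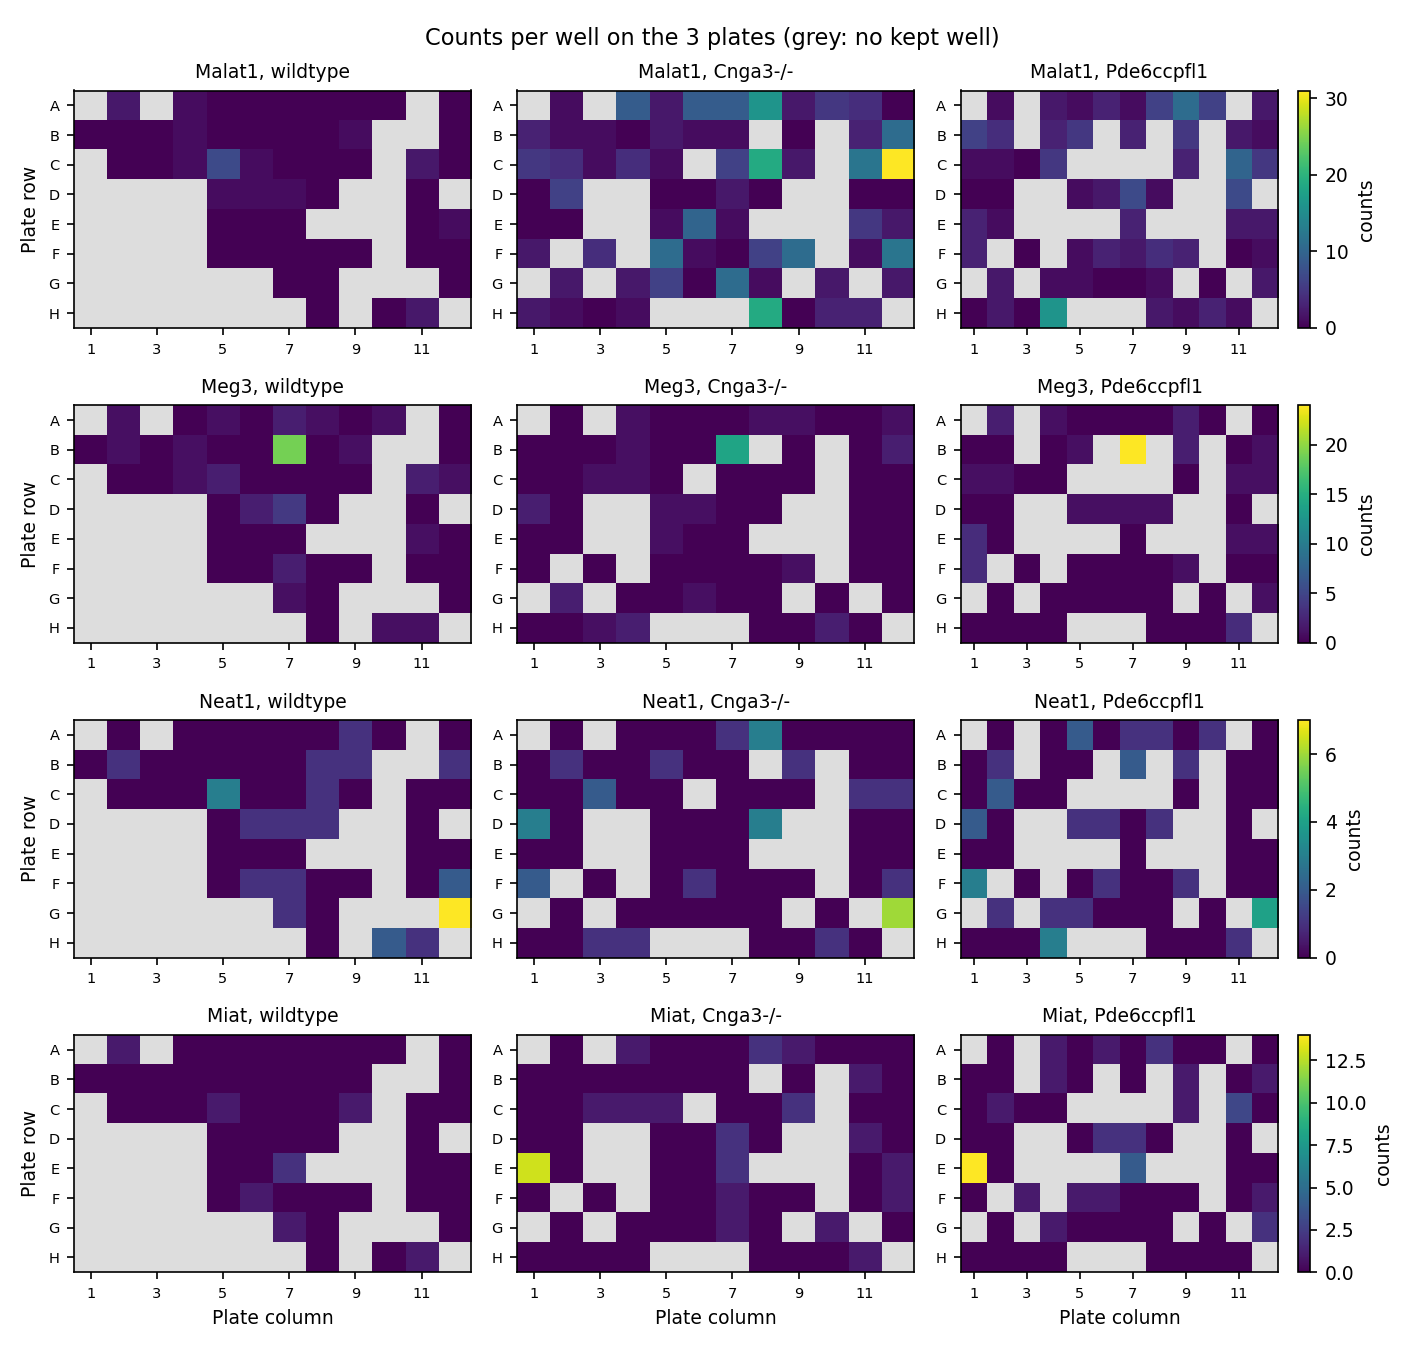
Counts of each gene (panel rows) per well of each plate (panel columns), drawn at the plate row and column in the well name. Colour is the count, on 1 scale per gene, and grey marks positions with no kept well. Meg3 is brightest at B07 and Neat1 at G12 on all 3 plates and Miat at E01 on both mutant plates, whereas Malat1 counts are spread over both mutant plates.

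Across positions, the Meg3 counts of each pair of plates had Pearson r of 0.91 (wildtype and Cnga3-/-, 50 positions), 0.95 (wildtype and Pde6ccpfl1, 43) and 0.90 (both mutants, 61). These rest on B07, since the rank correlations were 0.06, 0.17 and 0.04. For Neat1 r was 0.66, 0.58 and 0.59, for Miat 0.45, 0.35 and 0.90, and for Malat1 -0.15, 0.12 and 0.09. Wells at 1 position also shared depth, with r of 0.77, 0.73 and 0.76 for total counts. The summed olfactory receptor counts used as the reference recurred by position as well, with r of 0.91, 0.77 and 0.71. The pattern is general in the table. Of 2010 genes with at least 50 counts at the 43 shared positions, 1401 (69.7%) had 1 and the same leading position on all 3 plates, and the median over genes of the mean r was 0.873. The mean r was 0.94 for Meg3, 0.62 for Neat1, 0.38 for Miat and 0.03 for Malat1, and 20 of the 2010 genes were lower than Malat1. Among these 20 were Pde6g, the rod phosphodiesterase inhibitor (-0.05), mt-Co1, a mitochondrially encoded respiratory subunit (-0.06), and Tmsb10, an actin-binding peptide (-0.06), named after their values were seen. The other rod markers among the 2010 genes were higher: Pde6a 0.60, Gnb1 0.50, Pde6b 0.41 and Sag 0.18. The cone marker Pde6h was at 0.42, with the same leading position on all 3 plates. The source of the recurring positions was not tested, and how well barcodes were assigned is not given in the sources used here.

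**Figure D3:**
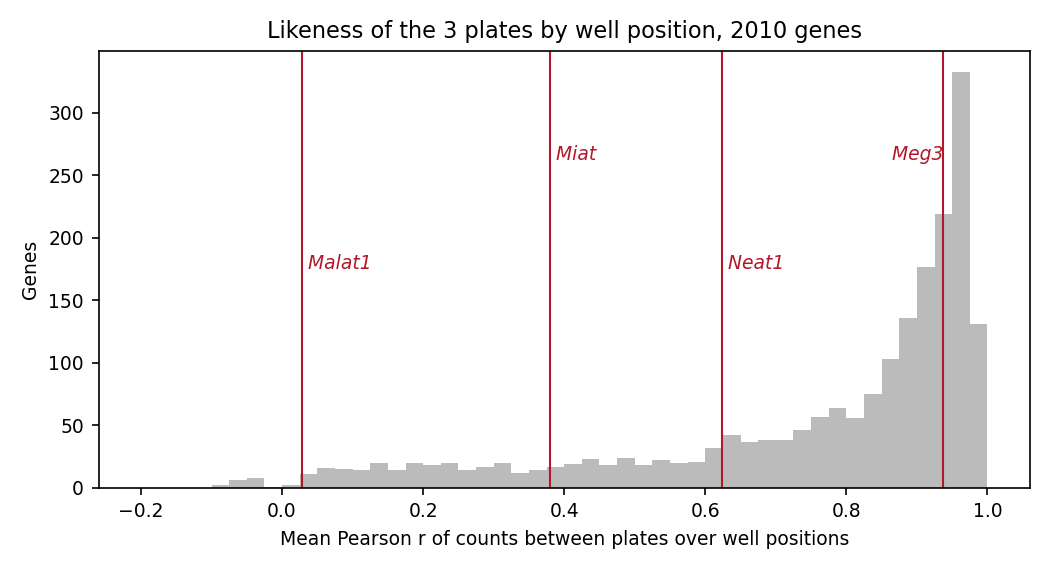
Histogram over 2010 genes of the mean Pearson r between plates of the counts at the 43 shared well positions, with the 4 genes as red lines. Most genes lie near the right end (median 0.873), where Meg3 lies, and Malat1 lies at the left end at 0.03.

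Without its leading position in every plate, Meg3 stood at 5.58, 3.88 and 5.78 CPM per kb and Neat1 at 3.64, 3.52 and 4.72 in wildtype, Cnga3-/- and Pde6ccpfl1. Taking out a gene's own highest well was bound to lower its level, while the olfactory receptor level (4.47, 3.60 and 4.14) kept all its wells. Nearness to that level after the removal is therefore no finding. Miat stood at 6.80 in Cnga3-/- and 10.0 in Pde6ccpfl1 without E01. Malat1 has no leading position in common. Without the highest well of each library (C05, C12 and H04) it stood at 56.3, 802 and 516 CPM, against 80.6, 879 and 559 with them, and C05 alone held 31.8% of the wildtype Malat1 counts.

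Malat1 was 10.9-fold higher in the Cnga3-/- library than in wildtype (log2 ratio of CPM 3.45, exact 95% counting interval 2.82 to 4.14) and 6.94-fold higher in Pde6ccpfl1 than in wildtype (2.80, 2.15 to 3.51). A gene entered a comparison if it reached 50 counts in the pair of libraries and was counted in 20% or more of the wells of either. In the comparison of Cnga3-/- with wildtype, 1723 genes entered, of which 11.2% were higher by 2-fold or more in Cnga3-/- and 11.7% lower by as much. For Pde6ccpfl1 with wildtype 1600 entered, with 10.2% higher and 15.2% lower in Pde6ccpfl1 by that measure. Malat1 was the 1 member among those higher in each, and 69 and 87 compared genes had a higher ratio than Malat1. Over all compared genes the median log2 ratios were -0.32 and -0.16. Both comparisons share the wildtype library, so they are not independent. The sum of the 12 cone markers was also higher in the mutants (183 CPM in wildtype and 736 in Cnga3-/-), as was that of 12 rod markers (115 counts in wildtype, 300 and 221 in the mutants). Summed cytosolic ribosomal protein genes stood at 1047, 1863 and 2054 CPM. The part of these differences in the Malat1 ratios was not tested, but scaled to ribosomal protein counts instead of the library total, a choice made after seeing the data, the Malat1 log2 ratios were 2.62 and 1.82.

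Matched by position, the Malat1 difference was spread over the plate. At the 43 positions kept on all plates Malat1 CPM was higher in Cnga3-/- than in wildtype at 34, lower at 5 and 0 in both at 4. For Pde6ccpfl1 it was higher than in wildtype at 38 positions, lower at 2 and 0 in both at 3. The summed counts at these positions were 14, 216 and 132, with log2 ratios of 3.95 (3.18 to 4.85) and 3.32 (2.52 to 4.23). Over all kept wells, leaving out C12 in every plate gave 3.28 and 2.76, against 3.45 and 2.80 with it. Between the mutants, Malat1 was lower in Pde6ccpfl1 over the whole libraries (-0.65, -0.94 to -0.37), and the ratio of the summed counts at the shared positions was -0.63 (-0.96 to -0.31). Position by position it was higher in Pde6ccpfl1 at 21 and lower at 22. Both the restriction to shared positions and the removal of leading positions were added after the data were seen.

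Miat was 3.46-fold higher in Cnga3-/- than in wildtype (log2 1.79, 0.65 to 3.11) and 4.74-fold higher in Pde6ccpfl1 (2.25, 1.13 to 3.55), on 8 wildtype counts. It had too few counts to be among the compared genes in either. Part of this came from E01, a position with no kept wildtype well: without it the ratios were 1.11 (-0.12 to 2.49), an interval that includes 0, and 1.66 (0.49 to 3.01). Taken from the odd-numbered and the even-numbered wells of each library alone, the ratio of Pde6ccpfl1 to wildtype was 0.47 and 5.05, the latter on 1 wildtype count. At shared positions Miat CPM was higher in Cnga3-/- than in wildtype at 13, lower at 3 and 0 in both at 27, and for Pde6ccpfl1 the numbers were 16, 3 and 24.

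Meg3 and Neat1 gave intervals that include 0 in both comparisons with wildtype. The log2 ratios of Meg3 were -0.61 (-1.28 to 0.05) for Cnga3-/- and 0.12 (-0.47 to 0.72) for Pde6ccpfl1, and those of Neat1 -0.14 (-0.94 to 0.66) and 0.13 (-0.65 to 0.93). The widths of these intervals leave room for differences of close to 2-fold either way for Neat1. Between the mutants Meg3 was higher in Pde6ccpfl1 (0.73, 0.10 to 1.38), and without B07 that interval included 0 (0.58, -0.26 to 1.43). In odd-numbered wells alone the Meg3 ratio turned to -0.41, and in even-numbered wells it was 2.03. Neat1 was at 0.28 (-0.49 to 1.05) and Miat at 0.46 (-0.24 to 1.16) in the same comparison. No member was 2-fold apart between the mutants, where 6.44% of 1693 compared genes were higher in Pde6ccpfl1 by 2-fold or more and 9.33% lower.

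By wells, Malat1 had a count in 13 of 52 wildtype wells (25.0%), 55 of 70 Cnga3-/- wells (78.6%) and 51 of 61 Pde6ccpfl1 wells (83.6%). Per well the lowest, median and highest counts were 0, 0 and 7 in wildtype, 0, 2 and 31 in Cnga3-/- and 0, 2 and 16 in Pde6ccpfl1. The wells of the 3 libraries overlapped in range. The libraries differed both in how many wells were above 0 and in the counts of those wells: 4 wildtype, 41 Cnga3-/- and 35 Pde6ccpfl1 wells held more than 1 Malat1 count. With each well thinned to 1000 counts, which kept all 183 wells, Malat1 was counted in 5 of 52 wildtype wells (9.62%, exact Clopper-Pearson 95% interval 3.20 to 21), 37 of 70 Cnga3-/- wells (52.9%, 40.6 to 64.9) and 27 of 61 Pde6ccpfl1 wells (44.3%, 31.5 to 57.6). The intervals of both mutants overlap each other and lie above that of wildtype. They take the wells of 1 plate as independent draws and cover no difference between animals or plates.

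The other members were rarely counted. Unthinned, Meg3 had a count in 20, 19 and 22 wells of wildtype, Cnga3-/- and Pde6ccpfl1, Neat1 in 17, 17 and 21, and Miat in 7, 18 and 19, and the median well was at 0 for each in every library. Thinned, Meg3 was counted in 4, 8 and 6 wells, Neat1 in 4, 5 and 9, and Miat in 1, 4 and 3. All 4 RNAs were counted together in 2, 2 and 4 wells. Within a library the members did not move together by much: the partial Spearman correlation given the total counts of the well was 0.33 for Malat1 and Meg3 in wildtype and -0.21 in Cnga3-/-.

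The link of Malat1 with cone marker counts was weak and its order among the libraries depended on depth. Given the total counts of the well, the partial Spearman correlation of Malat1 with the summed 12 cone markers was 0.10 over 52 wildtype wells, 0.18 over 70 Cnga3-/- wells and 0.29 over 61 Pde6ccpfl1 wells. In wells thinned to 1000 counts it was 0.31, 0.016 and 0.16 in the same order, which makes wildtype the highest. Wells of a plate share 1 library and differ in depth, so these values are a description, and in counts this sparse a weak correlation is no finding. At full depth the values with rod markers were 0.09, 0.12 and -0.05, and with olfactory receptor genes -0.17, 0.26 and -0.15. With summed ribosomal protein counts they were 0.32, 0.28 and 0.43, above the full-depth values with cone markers in all 3. For Meg3 the values with cone markers were -0.21, 0.03 and -0.03, for Neat1 -0.30, -0.09 and -0.18, and for Miat -0.05, 0.02 and -0.07. Each lay below the value of Malat1 in the same library.

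Splitting thinned wells by cone markers gave the same picture. In Cnga3-/- Malat1 was counted in 16 of 27 wells with a cone marker count (59.3%, 38.8 to 77.6) and in 21 of 43 without (48.8%, 33.3 to 64.5). In Pde6ccpfl1 it was counted in 15 of 30 with (50%, 31.3 to 68.7) and 12 of 31 without (38.7%, 21.9 to 57.8). In wildtype it was counted in 2 of 5 with and 3 of 47 without. Both mutant pairs of intervals overlap, and the wildtype class with cone markers is too small to compare. Before thinning, the Pde6ccpfl1 wells with a cone marker count had a median of 2478.5 counts, against 5995 without. In Cnga3-/- the medians were 3355 and 4284, and in wildtype 6033 and 4891. The classes thus differed in original depth as well as in cone markers.

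Malat1 was also high in mutant wells in which no cone marker was detected at full depth. In 12 such Cnga3-/- wells it stood at 1339 CPM (994 to 1765), on 50 counts, against 592 (472 to 733) in 30 wells with 1 to 2 cone markers and 1030 (877 to 1202) in 28 wells with 3 or more. In Pde6ccpfl1 it stood at 496 (5 wells), 557 (25) and 566 (31) CPM in the same classes, with no order beyond the intervals. In wildtype it stood at 54.6 (33 wells), 113 (17) and 83.1 (2 wells, on 1 count). The value in Cnga3-/- wells at 0 cone markers rests on 2 wells with 19 Malat1 counts each, and the other 10 wells held 12 counts, or 411 CPM. The 33 wildtype wells at 0 cone markers held 8 Malat1 counts, or 54.6 CPM, below the Cnga3-/- value with or without those 2 wells. In counts this sparse, a well with no cone marker detected is not shown to lack cone RNA. The part of cone content in the Malat1 difference was not tested.

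**Figure D4:**
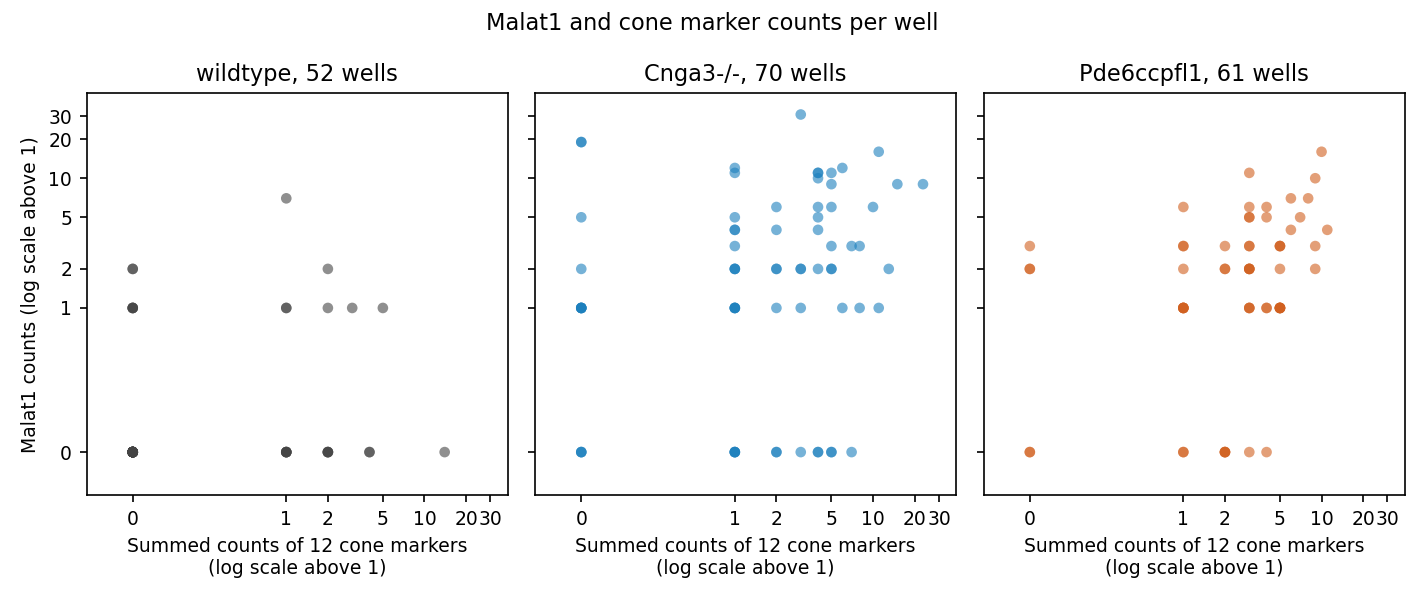
Malat1 counts against the summed counts of 12 cone markers per kept well, both axes linear from 0 to 1 and log above 1, for the 3 libraries (52, 70 and 61 wells); darker points are overlapping wells. Wildtype wells gather at 0 Malat1 counts, and in both mutants wells with few or no cone marker counts also reach several Malat1 counts.

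The sum of other long noncoding RNAs depended on 1 of them, Kcnq1ot1. Of a list of 37, 21 are in the table, with 440, 384 and 332 counts in wildtype, Cnga3-/- and Pde6ccpfl1 (log2 ratios to wildtype -0.49 and -0.52). Without Kcnq1ot1 the other 20 had 198, 224 and 264 counts, with log2 ratios of -0.12 (-0.40 to 0.16) and 0.30 (0.03 to 0.58). Between Cnga3-/- and wildtype 3 could be compared, with a median log2 ratio of -1.08 against -0.32 over all compared genes. Of these 3, 0 were at least 2-fold higher and 2 lower, against 11.2% and 11.7% of all compared genes. For Pde6ccpfl1 it was also 3 compared, 0 higher and 2 lower (10.2% and 15.2% of all compared genes), with a median of -1.37 against -0.16. In both comparisons the threshold of 50 counts left out Mir124a-1hg (0, 17 and 38 counts) and Snhg11 (8, 28 and 12). It also left out H19 (14, 7 and 2), which went the other way. Kcnq1ot1, the antisense RNA of an imprinted domain, had 242, 160 and 68 counts, of which 67, 36 and 17 were at position B05. Tug1, a widely expressed RNA first described in the retina, had 86, 50 and 120 counts, of which 34, 23 and 50 were at A02. Xist, the RNA that coats the inactive X, had 36, 19 and 15. Between the mutants 4 could be compared, of which 2 were at least 2-fold higher in Pde6ccpfl1 (Tug1, and Mir124a-1hg, the host of a neuronal miRNA) and 1 lower (Kcnq1ot1), with a median of 0.67 against 0.07. Of all compared genes 6.44% were higher and 9.33% lower by that measure.

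Of the Dlk1-Dio3 region, 6 of 7 listed genes are in the table, with 106, 95 and 119 counts in all, Meg3 included. Dlk1, a Notch-related ligand of the region, had 28, 27 and 19 counts, and Rtl1, a retrotransposon-derived gene there, had 21, 15 and 32. Rtl1 had 11, 12 and 14 of these at C12, so it too had 1 recurring position, but not that of Meg3. Mirg, a miRNA host RNA transcribed on the same strand as Meg3, had 4, 15 and 3. Of the genes other than Meg3, Dlk1 alone could be compared between Cnga3-/- and wildtype (-0.35) and Rtl1 alone between Pde6ccpfl1 and wildtype (0.50), neither of them 2-fold apart.

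The 15 paraspeckle protein genes, the partners of Neat1, summed to 105, 89 and 61 counts, with log2 ratios of -0.54 (-0.96 to -0.11) and -0.89 (-1.37 to -0.43) for the mutants over wildtype. These rest on 1 gene: without Cpsf6, the most counted, the other 14 summed to 61, 77 and 56, and both intervals included 0 (0.04, -0.46 to 0.55, and -0.23, -0.78 to 0.31). Cpsf6, a cleavage factor subunit, had 44, 12 and 5 of these and Matr3, a nuclear matrix protein, 19, 5 and 5, whereas Sfpq had 1, 0 and 0 and Nono 2, 6 and 6. The core proteins of the body were thus hardly counted. The 16 speckle and splicing genes, the partners of Malat1, summed to 119, 222 and 213, with log2 ratios of 0.60 (0.27 to 0.94) and 0.73 (0.40 to 1.06). Without Srrm2, the most counted, they were 0.58 (0.16 to 1.01) and 0.34 (-0.11 to 0.79), so the second interval then included 0. Srrm2, a speckle scaffold protein, had 45, 86 and 112, of which 10, 9 and 17 were at C02, and Son, another, had 7, 30 and 22. The 3 splicing factors known to bind Miat, Qk, Celf3 and Sf1, summed to 8, 15 and 13 counts.

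The 7 listed neighbours of Malat1 and Neat1 on chromosome 19 gave a local comparison. They summed to 30, 44 and 34 counts, or 3.84, 4.58 and 4.03 CPM per kb, and their log2 ratios to wildtype were 0.26 and 0.07. The neighbouring genes therefore lay near the olfactory receptor level in all 3 libraries, far from the Malat1 level in the mutants.

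The markers of other retinal cells were counted in the same way, and their part in the Malat1 ratios was not tested. Horizontal cell markers stood at 10.9, 7.92 and 9.27 CPM per kb, amacrine markers at 2.91, 2.58 and 2.45 and ganglion cell markers at 3.84, 4.25 and 4.41. Müller glia markers stood at 6.38, 3.81 and 3.28, bipolar cell markers at 2.09, 3.48 and 2.76 and microglia markers at 2.20, 1.99 and 1.59. Astrocyte markers stood at 7.39, 7.40 and 10.3, endothelium and pericyte markers at 2.28, 3.21 and 2.49, and pigment epithelium markers at 1.29, 2.62 and 2.38. The summed counts of the last were 2 in wildtype and 5 in Cnga3-/-, so its level is set by a few counts. Bipolar, endothelium and pericyte, and pigment epithelium markers were lowest in wildtype and highest in Cnga3-/-, which is the order of Malat1. Rod markers (6.73, 14.3 and 12.0 CPM per kb) and cone markers (4.33, 17.4 and 17.0) had the same order. Most of the horizontal cell counts were of Onecut2, with 89, 74 and 70 counts, of which 28, 28 and 23 were at the single position F08.

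The genes most like each member over wells were ranked by the mean of the 3 partial Spearman correlations given total counts, among 1088 genes counted in 20% or more of the wells of every library. For Malat1 these were Ccnd3, a G1 cyclin (0.25), Top1, the nuclear topoisomerase (0.24), Tnfrsf1b, a TNF receptor (0.23), Ppp2r3a, a phosphatase regulatory subunit (0.23), and Gmppb, an enzyme of GDP-mannose synthesis (0.22). The median over all genes was 0.01 and the 99th percentile 0.19, so these are the upper end of a narrow range. Ccnd3 itself had 115, 66 and 37 counts in wildtype, Cnga3-/- and Pde6ccpfl1, the opposite order to Malat1 in its comparison with wildtype. For Meg3 the 5 were Kat2a (0.25), Vash2, Hectd4, Rnf122 and Fgf7 (0.23), and for Neat1 Dsg2 (0.27), Trpv3, Gsdme, Slc4a7 and Ptpn18 (0.23). Miat had a count in too few wildtype wells to be ranked.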

How the data were processed

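The authors deposited 1 table of counts per gene and well, made with featureCounts (no version given) per the submitters' processing notes. Those notes name build GRCh38, a human build, while the row names are mouse symbols, of which 30464 of 31053 (98.1%) are in GENCODE M21, so coordinates and exon lengths come from GENCODE M21 on GRCm38 and the stated build was not used. The aligner, strand setting, handling of molecular identifiers and any cell filter are not given in the sources used here, so a count may not be an independent molecule. Intervals for CPM and log2 ratios cover counting error alone. Clopper-Pearson intervals take the wells of 1 plate as independent draws, which are not replicates of a genotype.

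Wells were matched to libraries by column name and kept with at least 500 genes and at most 30% mt- counts; all left-out wells failed on genes. No doublet caller was run on these single-cell sorts. Counts were summed per library and scaled to CPM, with exact Poisson 95% intervals, exact conditional intervals for log2 ratios and Clopper-Pearson intervals for shares. In the counts of genes 2-fold apart, a library at 0 was set to a floor of 3 counts; no printed member ratio needed it. Thinning to 1000 counts was 1 random draw (seed 1). With 1 library per genotype no p-value was computed. Members and gene lists were chosen with earlier results of these data known. Named were the members, the most counted genes of each list and, per member, the 5 genes most like it, leaving out mt- genes, predicted genes and pseudogenes. The alternatives were other filters, scalings (TMM from edgeR 4.0.16 among them), thinning, odd and even wells, without the 5 deepest wells, and those added after seeing the data: shared positions, no leading position, ribosomal protein scaling, and gene lists without their most counted gene. One sequence is not reported here. The scripts were tested on simulated data and run with Python 3.11.15, pandas 2.3.3 and scipy 1.17.1.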

Additional observations from a re-analysis of the deposited data

Results flagged for a closer look

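Malat1 was also counted in mutant wells that were left out for having under 500 genes. The 6 left-out Cnga3-/- wells held 11 Malat1 counts among 4749 (2316 CPM, exact Poisson 95% interval 1156 to 4144), and the 10 left-out Pde6ccpfl1 wells held 16 among 8245 (1941 CPM, 1109 to 3151). The 9 left-out wildtype wells held 0 among 7174, which allows up to 514 CPM at the upper interval bound. Both mutant values exceed those of the kept wells of the same plate (879 and 559 CPM). These wells entered only the alternative with no filter on wells, where the Malat1 counts were 22, 306 and 181.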

How the results depend on the processing

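The Malat1 ratios kept their direction under all 14 alternatives, ranging from 2.62 to 3.95 (Cnga3-/- over wildtype), 1.82 to 3.32 (Pde6ccpfl1 over wildtype) and -0.86 to -0.52 (between the mutants), and 40 of 42 values lay within the counting interval. The ratios of Meg3, Neat1 and Miat rest on 8 to 54 counts per library, and thinning, ribosomal protein scaling or taking odd-numbered or even-numbered wells alone moved several of them. No paired analysis was possible because each genotype has 1 library, so no replicates can be paired; the matching by well position compares wells of single plates and is a description. The cause of the shifts below was not tested.

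Scaled to summed ribosomal protein counts, the mutant ratios to wildtype (Cnga3-/- first) were 2.62 and 1.82 for Malat1, -1.44 and -0.85 for Meg3 and -0.98 and -0.84 for Neat1. This scaling moved the median log2 ratio of all compared genes to -1.15 and -1.13, with 132 genes at least 2-fold higher and 988 lower, and 116 higher and 933 lower. Thinned to 1000 counts, Meg3 was at 0.31 (Cnga3-/- over wildtype) and reversed to -0.12 (between the mutants), Neat1 at 0.94 (Pde6ccpfl1 over wildtype) and Miat at -1.22 (between the mutants). In odd-numbered wells Meg3 was at 0.68 and reversed to -0.41 (Cnga3-/- over wildtype and between the mutants), Neat1 at -1.12 (Cnga3-/- over wildtype), and Miat at 0.47 and -1.10 (Pde6ccpfl1 over wildtype and between the mutants). In even-numbered wells the values were -1.79 and 2.03 for Meg3, 1.11 (Cnga3-/- over wildtype) and -0.51 (between the mutants) for Neat1, and 5.05 and 2.21 for Miat. In wells with at least 3 cone markers Miat was at 1.59 between the mutants, and Neat1 and Miat gave no value against wildtype there, with 0 counts in 2 wildtype wells.

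The correlation of Malat1 with cone markers was 0.31, 0.016 and 0.16 in thinned wells of wildtype, Cnga3-/- and Pde6ccpfl1. Malat1 shares without thinning were 25.0%, 78.6% and 83.6%, and thinned to 2000 counts the Pde6ccpfl1 share was 64.4% (45 wells). Compared genes at least 2-fold apart numbered 395, 407 and 267 in the 3 comparisons, 795, 862 and 451 with at least 10 counts, 70, 74 and 49 with at least 200, and 1120 and 1049 against wildtype with ribosomal protein scaling. Median-of-ratios factors gave 219 higher and 140 lower genes for Cnga3-/- over wildtype, against 193 and 202.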
